A study of Mus musculus with 29 samples.

Results

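The Slc25 genes encode the mitochondrial carrier family, and their messenger RNA was followed in mouse B cells and tumours that carry an Eu-myc transgene (Tg) and in fibroblasts with a switchable Myc. Members were all genes whose symbol begins with Slc25a and a digit. This gave 44 of 21819 genes in the B cell and tumour files and 47 of 21675 genes in the fibroblast files, with 44 symbols in both. The 3 members found by symbol in the fibroblast files only, Slc25a51, Slc25a53 and Slc25a54, stand in the B cell files under the older symbols Mcart1, Mcart6 and 4930443G12Rik and were not counted there. Membership was set by the symbol alone, though the family was chosen with earlier results of these data known.

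Mitochondrial carriers lie, with few exceptions, in the inner mitochondrial membrane and move metabolites, nucleotides and cofactors between cytosol and matrix, most of them by exchange. The ADP/ATP carriers Slc25a4 and Slc25a5 let ATP out and ADP in, the phosphate carrier Slc25a3 brings in phosphate for ATP synthase, and the aspartate/glutamate carriers Slc25a12 and Slc25a13 serve the malate-aspartate shuttle. Myc is a transcription factor known for binding the E-box CACGTG and for raising biosynthesis and mitochondrial mass in growing cells. New carrier proteins reach the inner membrane through the TIM22 pathway, in which small Tim chaperones and the TIM22 complex take part.

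The B cell samples came from C57BL/6 mice. Tumour cells of Tg animals (Tg_lymphnode, n = 3) were pressed out of lymph nodes and not purified further, and the labels give no age for these animals. B cells of young Tg animals (Tg_spleen, n = 4) and of WT animals (WT_spleen, n = 4), both aged 6 to 8 weeks, were enriched from spleen with B220 beads on a magnetic column. In Eu-myc mice an immunoglobulin heavy chain enhancer drives Myc in the B lineage. The fibroblasts are a 3T9 line made from E13.5 embryos, of mixed strain and c-myc flox/flox, infected in vitro with MycER, a Myc protein that 4-hydroxytamoxifen (OHT) activates. All fibroblast groups share this genotype, and the labels do not say whether the floxed alleles were recombined. Cells received 400 nM OHT for 4, 8 or 16 h or ethanol at 0 h, with 4 libraries of total RNA a time. At 0 and 4 h, RNA made during 10 min with 300 µM 4-thiouridine (4sU) was also sequenced, with 1 library a time. Values are FPKM, read counts scaled to gene length and library size. The files hold no counts, and sequencing depth is unknown. The B cell and fibroblast files were scaled apart, so levels are not compared between them. The labels do not say that replicates are separate animals or cultures, and p-values measure the spread between these libraries.

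Myc itself had 2123, 2178.8 and 1759.4 FPKM in tumours and 1017.4, 1275.4, 2407.9 and 1524.7 FPKM in Tg spleen, against 226.6, 273.3, 215 and 190.7 FPKM in WT spleen. In fibroblasts Myc had 24.354, 29.734, 20.259 and 23.04 FPKM at 0 h, 7.924, 9.508, 11.431 and 14.525 FPKM at 4 h, 13.051, 14.323, 13.268 and 9.296 FPKM at 8 h, and 11.696, 9.312, 9.78 and 8.35 FPKM at 16 h. OHT acts on the MycER protein and not on its RNA, so these levels do not check the treatment. The tumour library numbered 3 went against its cell type label. Its 8 B cell markers summed to 4167 FPKM, with Cd79a at 55.6 FPKM, while the other tumours had sums of 18861 and 20851 FPKM. The sums were 25002 to 38790 FPKM in Tg spleen and 42347 to 46674 FPKM in WT spleen. All 9 T cell markers measured were above 0 in at least 1 library of each group and summed to 564 to 17804 FPKM in tumours, 108 to 279 FPKM in Tg spleen and 366 to 602 FPKM in WT spleen. The tumour numbered 3 had Cd4 at 9468.2 and Cd8b1 at 7614.6 FPKM, with Cd3e at 62.8 FPKM. The 9 exocrine gland markers summed to 2810 to 12926 FPKM in tumours, 1.6 to 13.7 FPKM in Tg spleen and 5.7 to 78.5 FPKM in WT spleen, with Amy2b, Prss1 and Psp at 0 in all Tg spleen and Smr3a at 0 in all WT spleen libraries. The 6 NK cell markers summed to 96.5 to 152 FPKM in tumours, 44.2 to 334 FPKM in Tg spleen and 349 to 666 FPKM in WT spleen. The 9 stroma and matrix markers summed to 1085 to 1257 FPKM in tumours, 486 to 817 FPKM in Tg spleen and 1030 to 1199 FPKM in WT spleen, with Lum at 0 in all WT spleen libraries. The 8 fibroblast markers summed to 2970 to 5951 FPKM in tumours, 2310 to 5418 FPKM in Tg spleen and 1300 to 1971 FPKM in WT spleen. Macrophage and monocyte markers (9 genes) summed to 2490 to 5558 FPKM in tumours. Their sums were 1656 to 5130 FPKM in Tg spleen and 3433 to 7808 FPKM in WT spleen, ranges that overlapped. Erythroid markers (8 genes) summed to 296 to 415 FPKM in tumours, 38 to 83.2 FPKM in Tg spleen and 88.6 to 213 FPKM in WT spleen. Thus in Tg spleen the sums of B cell, T cell, NK cell, stroma and erythroid markers lay below those of WT spleen in every library. That of fibroblast markers lay above. The fibroblast list shares Col1a1, Col1a2, Col3a1 and Pdgfrb with the stroma list and Thy1 with the T cell list. Its other genes are Vim, Fn1 and S100a4, so the higher sum does not show more fibroblasts. Because the tumour numbered 3 went against its label, counts and fold changes called in tumours are given without it too. The part of the cell type markers in the results was not tested. The RNase P RNA Rpph1 took 545353 to 735331 FPKM in Tg spleen replicates 2 and 3 and WT spleen replicates 1 and 3, against 153474 to 215865 FPKM in the other 4 spleen libraries, and the comparison of Tg with WT spleen was repeated within each set.

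Slc25a3, Slc25a5 and Slc25a4 were the most abundant carriers of B cells, at 1564, 1492 and 1101 FPKM averaged over the 3 groups. They ranked 298, 324 and 499 among all genes. Slc25a11, the oxoglutarate/malate carrier, followed at 385 FPKM and the peroxisomal carrier Slc25a17 at 300 FPKM. Of 44 members, 19 had at least 100 FPKM, 18 had 10 to 100, 3 had 1 to 10 and 4 were under 1 FPKM. The last 4 were Slc25a41, the ADP/ATP carrier Slc25a31, the oxodicarboxylate carrier Slc25a21 and Slc25a48, which was listed at 0 in every B cell library. The median member had 71 FPKM and the median gene 17.2 FPKM. In fibroblasts the order differed. Slc25a5 led at 102 FPKM, and then came Slc25a17 at 68.1, Slc25a4 at 63.5, the ATP-Mg/phosphate carrier Slc25a24 at 61.9 and Slc25a11 at 60.0 FPKM. Slc25a3 stood at rank 18 of the family, at 26.5 FPKM. The top of the fibroblast scale was narrow, since no gene exceeded 139 to 201 FPKM, depending on the library, while the 99th percentile was 82.7 to 97.6 FPKM. In B cells the 99th percentile was 1539 to 2395 FPKM and the highest gene 230335 to 986814 FPKM. Slc25a5 lay near or above the 99th percentile in every fibroblast library, and the part of this narrow range in its values was not tested.

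Because Myc is known to bind CACGTG, promoter windows of 300 bases, from 250 before to 50 after a RefSeq start site (GRCm38.p6), were searched for these letters, which read the same on both strands. Of 36 members with a window, 7 held the motif (19.4%): Slc25a1, Slc25a13, Slc25a14, Slc25a15, Slc25a31, Slc25a33 and Slc25a36. Of all 27025 genes with a window, 8.09% held it. Among genes tested in Tg against WT spleen the shares were 6 of 31 members (19.4%) and 11.4% of 9603 genes. Slc25a4, Slc25a5, Slc25a3, Slc25a17 and Slc25a39 had no match in the window. The promoters of the 4 members that carry the motif and were called in B cells or fibroblasts are printed here 5′ to 3′ on the gene's strand, with the motif in capitals. The windows of Slc25a13 (chr6:6217124-6217423), Slc25a15 (chr8:22398228-22398527), Slc25a33 (chr4:149774218-149774517) and Slc25a36 (chr9:97110992-97111291) all lie on the minus strand.
Slc25a13 promoter: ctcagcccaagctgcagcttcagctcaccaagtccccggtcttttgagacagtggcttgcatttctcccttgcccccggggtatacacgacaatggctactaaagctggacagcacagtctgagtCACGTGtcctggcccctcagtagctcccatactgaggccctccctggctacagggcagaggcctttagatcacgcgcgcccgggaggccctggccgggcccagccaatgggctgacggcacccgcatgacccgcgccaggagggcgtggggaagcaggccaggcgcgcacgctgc
Slc25a15 promoter: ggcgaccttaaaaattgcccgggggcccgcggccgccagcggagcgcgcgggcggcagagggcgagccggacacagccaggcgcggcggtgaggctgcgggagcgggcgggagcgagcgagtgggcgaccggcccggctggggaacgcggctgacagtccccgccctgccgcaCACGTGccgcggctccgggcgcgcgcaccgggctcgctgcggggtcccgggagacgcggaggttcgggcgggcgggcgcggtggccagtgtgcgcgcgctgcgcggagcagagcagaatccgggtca
Slc25a33 promoter: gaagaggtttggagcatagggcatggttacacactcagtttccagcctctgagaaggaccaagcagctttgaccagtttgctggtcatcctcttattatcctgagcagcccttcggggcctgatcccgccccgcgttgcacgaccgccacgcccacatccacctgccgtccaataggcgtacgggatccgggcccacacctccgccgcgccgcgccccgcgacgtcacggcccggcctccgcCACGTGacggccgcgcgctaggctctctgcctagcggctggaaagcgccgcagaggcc
Slc25a36 promoter: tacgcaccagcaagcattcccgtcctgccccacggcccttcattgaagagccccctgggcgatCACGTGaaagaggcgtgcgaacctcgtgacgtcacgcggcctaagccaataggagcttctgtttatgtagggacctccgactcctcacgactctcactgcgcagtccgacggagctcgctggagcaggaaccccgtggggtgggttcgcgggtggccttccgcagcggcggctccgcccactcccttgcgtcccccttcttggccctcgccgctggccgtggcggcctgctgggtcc
The motif begins 125 bases before the start site of Slc25a13, 77 before that of Slc25a15, 8 before that of Slc25a33 and 187 before that of Slc25a36. The first 3 of these members were called higher in at least 1 comparison below, and Slc25a36 was called lower in tumours. Slc25a15 has a second annotated window without it. A match is a string of letters, and no binding was measured here.

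In B cells of young Tg mice a small set of carriers was higher than in WT B cells, among them both ADP/ATP carriers, the phosphate carrier, the ornithine carrier and the aspartate/glutamate carrier Slc25a13. Log2 fold changes of the called members lay between 0.53 and 1.66. Of 40 members tested, 8 were called higher (20.0%) and 0 lower by limma, with p adjusted over all genes and a threshold of 0.05. Over all 14021 genes tested, 15.7% were higher and 12.2% lower, so the share of higher members lay near that of all genes. An unadjusted p under 0.05 was found for 14 members (35.0%) and for 41.8% of all genes. The median log2 fold change was -0.03 for members and -0.05 for all genes. Groups did not overlap in 8 members that were higher in Tg spleen and 2 that were lower, Slc25a12 and Slc25a40, against 16.9% and 14.7% of all genes. Of the 44 members, 4 had too little signal to be tested, and 1 of the 40 fell short of the filter on low values in at least 1 of the groups taken alone. All fold changes are on the log2 scale of FPKM + 0.5.

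Slc25a4, the ADP/ATP carrier of heart and muscle, had 1067.4, 1170.2, 1569.6 and 1650.2 FPKM in Tg spleen, against 581.5, 631.3, 521 and 696 FPKM in WT spleen. Every Tg library lay above every WT library. The log2 fold change was 1.15 ± 0.18 (SE, n = 4 each; adjusted p = 0.00351, limma). Slc25a5, the ADP/ATP carrier typical of proliferating cells, had 1378.5, 1605, 2288.8 and 2213.8 FPKM in Tg spleen, against 736.7, 850.9, 613.4 and 962.3 FPKM in WT spleen. Again the groups were apart, with a log2 fold change of 1.23 ± 0.21 (adjusted p = 0.00474, limma). The ratio of Slc25a5 to Slc25a4 was 1.29 to 1.46 in Tg spleen and 1.18 to 1.38 in WT spleen, ranges that overlapped. Slc25a5-ps, a pseudogene of the same sequence family, is annotated in RefSeq, and how reads shared with it were counted is not given in the sources used here. The phosphate carrier Slc25a3 had 1688.5, 1691.5, 2331.3 and 2260.6 FPKM in Tg spleen, against 1060.2, 1196.8, 1238.1 and 1447.5 FPKM in WT spleen. Its groups did not overlap either, and its log2 fold change was 0.68 ± 0.18 (adjusted p = 0.0197, limma). This call was lost in 8 of 18 alternatives, among them the fits without Tg spleen replicate 5 or without WT spleen replicate 1, 3 or 4 (adjusted p = 0.0505 to 0.0664, limma). Slc25a3, Slc25a4 and Slc25a5 together made up 50.1% to 59.7% of the summed FPKM of the family in Tg spleen and 36.8% to 42.9% in WT spleen.

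Among 9 amino acid carriers, 2 were higher and 0 lower, against 15.7% and 12.2% of all genes. Slc25a13, the aspartate/glutamate carrier known as citrin, had 50.4, 53.2, 101.5 and 78.8 FPKM in Tg spleen, against 16.3, 23.3, 22.3 and 23.6 FPKM in WT spleen. Its log2 fold change of 1.66 ± 0.25 was the largest of the family in this comparison (adjusted p = 0.00348, limma). The related carrier Slc25a12, known as aralar, averaged 173 ± 21.8 FPKM in Tg spleen and 212 ± 11.4 FPKM in WT spleen (SD, n = 4 each), values that did not overlap but did not pass (adjusted p = 0.105, limma). Slc25a13 thus amounted to 0.266 to 0.715 of Slc25a12 in Tg spleen and 0.0792 to 0.113 in WT spleen. In a fit of all 3 B cell groups together the call of Slc25a13 was lost (adjusted p = 0.19, limma), beside its wide spread in tumours given below. The ornithine carrier Slc25a15 had 75.1, 81.7, 124.5 and 116.7 FPKM in Tg spleen, against 39.9, 37.7, 51.1 and 49.8 FPKM in WT spleen (log2 fold change 1.13 ± 0.20, adjusted p = 0.00544, limma). These groups did not overlap.

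Among 8 nucleotide and cofactor carriers, 2 were higher and 0 lower. Among 4 iron and glutathione carriers the counts were 1 and 0. Over all genes the shares were 15.7% and 12.2%. Slc25a17, a carrier of coenzyme A and other adenine cofactors in peroxisomes, had 321.3, 343.6, 369.1 and 408.4 FPKM in Tg spleen, against 238.4, 202.8, 197.5 and 240.4 FPKM in WT spleen. Every Tg library was above every WT library. It averaged 361 ± 37.4 FPKM in Tg spleen and 220 ± 22.8 FPKM in WT spleen (log2 fold change 0.71 ± 0.13, adjusted p = 0.00518, limma). Slc25a32, which carries folate or FAD, averaged 132 ± 16.2 FPKM in Tg spleen and 90.8 ± 4.78 FPKM in WT spleen (log2 fold change 0.53, adjusted p = 0.0155, limma). The glutathione carrier Slc25a39 was the 1 of 4 iron and glutathione carriers that was higher, at 319 ± 116 FPKM in Tg spleen and 158 ± 37.2 FPKM in WT spleen (log2 fold change 0.97, adjusted p = 0.025, limma). Its call was lost in 7 of 18 alternatives, among them the fits without Tg spleen replicate 4 or 5 or without WT spleen replicate 1, 3 or 4 (adjusted p = 0.0561 to 0.0715, limma). Its paralogue Slc25a40 averaged 39.6 ± 4.79 FPKM in Tg spleen and 48.3 ± 3.66 FPKM in WT spleen (adjusted p = 0.197, limma). No member passed among the 3 citrate, dicarboxylate and oxoglutarate carriers, the 3 uncoupling protein-like carriers, the carnitine/acylcarnitine carrier Slc25a20 or the outer membrane member Slc25a46, in limma, with 1 of these 8 at an unadjusted p under 0.05. Within the libraries of high Rpph1 the log2 fold changes of the 8 higher members ran between 0.43 for Slc25a32 and 1.39 for Slc25a13. Within those of low Rpph1 they ran between 0.62 for Slc25a32 and 1.94 for Slc25a13. Slc25a3 and Slc25a32 did not pass within either set (adjusted p = 0.0541 and 0.1 in the high set and 0.079 and 0.0732 in the low set, limma). With the Rpph1 set as a factor in the fit, 4 of 40 members were called lower in Tg spleen instead of 0. Of all 14021 genes, 15.7% were lower in that fit. The lower members include Slc25a11, Slc25a18 and Slc25a36 with log2 fold changes of -0.37, -0.66 and -0.44. The count of lower members was also 2 without Tg spleen replicate 2, and 1 without Tg spleen replicate 4, Tg spleen replicate 5 or WT spleen replicate 6.

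**Figure D1:**
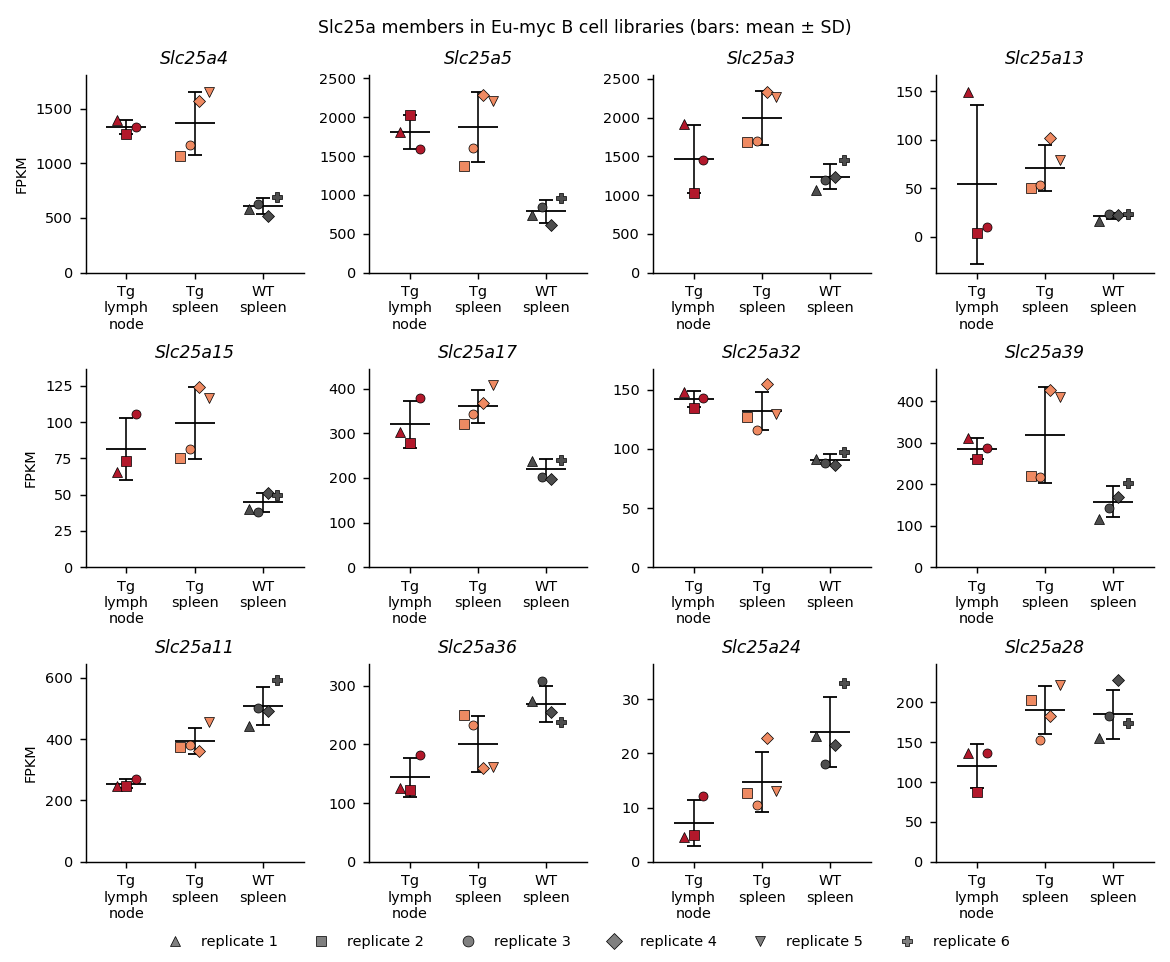
FPKM of 12 Slc25a members (vertical axis, from 0 except where an error bar reaches below it) in each tumour, Tg spleen and WT spleen library (points, shaped by replicate number), with the mean and SD (bars). Slc25a4 and Slc25a5 lie above all WT spleen libraries in every Tg library, Slc25a11 is lowest in tumours, and Slc25a13 is at 148.7, 3.9 and 9.8 FPKM in the 3 tumours.

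In tumours, members moved in both directions against WT B cells: the ADP/ATP carriers were higher, while the oxoglutarate/malate carrier and a pyrimidine nucleotide carrier were lower. Of 41 members tested, 8 were called higher (19.5%) and 6 lower (14.6%), against 20.3% and 17.7% of all 14758 genes tested. Both shares of members thus lay near those of all genes, which also moved in both directions. The median log2 fold change was 0.02 for members and 0.05 for all genes. Groups did not overlap in 12 higher and 7 lower members, against 24.0% and 21.4% of all genes, and 3 of the 41 fell short of the filter on low values in at least 1 group, among them Slc25a27. Without the tumour numbered 3, 8 of 43 members were higher and 9 lower, against 22.9% and 21.1% of all 15126 genes: Slc25a40 was called higher and Slc25a17 was not, and Slc25a12, Slc25a38 and Slc25a45 were called lower beside the other 6. The count of higher members was 5 without WT spleen replicate 1 and 4 without WT spleen replicate 3.

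Slc25a4 had 1393.8, 1264 and 1331.5 FPKM in tumours, all above the WT spleen libraries given above (log2 fold change 1.14 ± 0.15, n = 3 against 4, adjusted p = 0.00114, limma). Slc25a5 had 1811.5, 2028.9 and 1597.4 FPKM in tumours (log2 fold change 1.21 ± 0.20, adjusted p = 0.00268, limma). Neither value rested on the tumour numbered 3, since without it the log2 fold changes were 1.14 and 1.30. Slc25a3 had 1910.7, 1026.4 and 1454.2 FPKM in tumours, overlapped WT spleen and was not called (log2 fold change 0.21, adjusted p = 0.52, limma). The 3 carriers together held 53.8% to 57.1% of the family's FPKM in tumours. Slc25a32 had 147.8, 134.7 and 143.1 FPKM in tumours, against 91.5, 88, 86.4 and 97.2 FPKM in WT spleen (log2 fold change 0.64, adjusted p = 0.0074, limma). Slc25a39 had 311.2, 260.7 and 286.6 FPKM in tumours, against 116.3, 143, 169.7 and 203.2 FPKM in WT spleen (log2 fold change 0.88, adjusted p = 0.0104, limma). Both were above every WT library. Slc25a15 (log2 fold change 0.84), Slc25a17 (0.54), the dicarboxylate carrier Slc25a10 (0.93) and Slc25a29, a carrier of basic amino acids (0.86), were also called higher. Without the tumour numbered 3 the log2 fold changes of Slc25a32, Slc25a39, Slc25a15, Slc25a10 and Slc25a29 were 0.63, 0.88, 0.64, 1.04 and 0.98, all still called. Slc25a17 had 303.8, 277.9 and 379.1 FPKM in tumours, and without the tumour numbered 3 or without WT spleen replicate 3 or 4 it missed the threshold (adjusted p = 0.0502, 0.0746 and 0.0746, limma). Slc25a15 missed it without WT spleen replicate 1 or 3 (adjusted p = 0.0649 and 0.0634, limma). The call of Slc25a10 was lost without tumour replicate 1 or 2 or WT spleen replicate 1, 3 or 6 (adjusted p = 0.0536 to 0.0979, limma). That of Slc25a29 was lost without tumour replicate 2 or any 1 of the WT spleen libraries (adjusted p = 0.0598 to 0.125, limma).

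Slc25a11, which exchanges oxoglutarate and malate in the malate-aspartate shuttle, had 248.5, 246.5 and 270.3 FPKM in tumours and 374, 380.3, 360.7 and 454.6 FPKM in Tg spleen, against 442.8, 500.3, 491.4 and 591.7 FPKM in WT spleen. The tumours lay close together and below every Tg spleen and WT spleen library, with a log2 fold change of -0.98 ± 0.14 over WT spleen (adjusted p = 0.00141, limma). Slc25a11 overlaps the gene Rnf167 in the annotation, and without strand information their reads cannot be told apart. Slc25a36, a pyrimidine nucleotide carrier, had 126.4, 122.3 and 182.4 FPKM in tumours, against 274.3, 308.6, 255.4 and 237.5 FPKM in WT spleen (log2 fold change -0.92 ± 0.18, adjusted p = 0.0057, limma). All tumours were below every WT library. The ATP-Mg/phosphate carrier Slc25a24 had 4.6, 4.9 and 12.1 FPKM in tumours, against 23.2, 18, 21.6 and 33 FPKM in WT spleen (log2 fold change -1.76, adjusted p = 0.0117, limma), and its highest tumour value came from the tumour numbered 3. Without that tumour the log2 fold changes of Slc25a11, Slc25a36 and Slc25a24 were -1.02, -1.10 and -2.19, and each was still called. Slc25a28, mitoferrin 2, averaged 120 ± 28.1 FPKM in tumours and 185 ± 30.7 FPKM in WT spleen (log2 fold change -0.64, adjusted p = 0.0442, limma). Slc25a27, an uncoupling protein-like carrier, had 0.9, 5 and 0 FPKM in tumours, against 5.8, 8.5, 15.3 and 8.6 FPKM in WT spleen (log2 fold change -2.60, adjusted p = 0.0301, limma). It reached the filter of 1 FPKM in 1 of 3 tumours, so it could be tested only through WT spleen, where it was high. Without the tumour numbered 3 the log2 fold changes of Slc25a28 and Slc25a27 were -0.74 and -1.78, both still called. The call of Slc25a28 was lost without tumour replicate 2 or any 1 of the WT spleen libraries (adjusted p = 0.0563 to 0.115, limma). That of Slc25a27 was lost without tumour replicate 1 or WT spleen replicate 3, 4 or 6 (adjusted p = 0.0624 to 0.0799, limma). In bulk samples fewer cells of a type and less RNA per cell cannot be told apart.

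**Figure D2:**
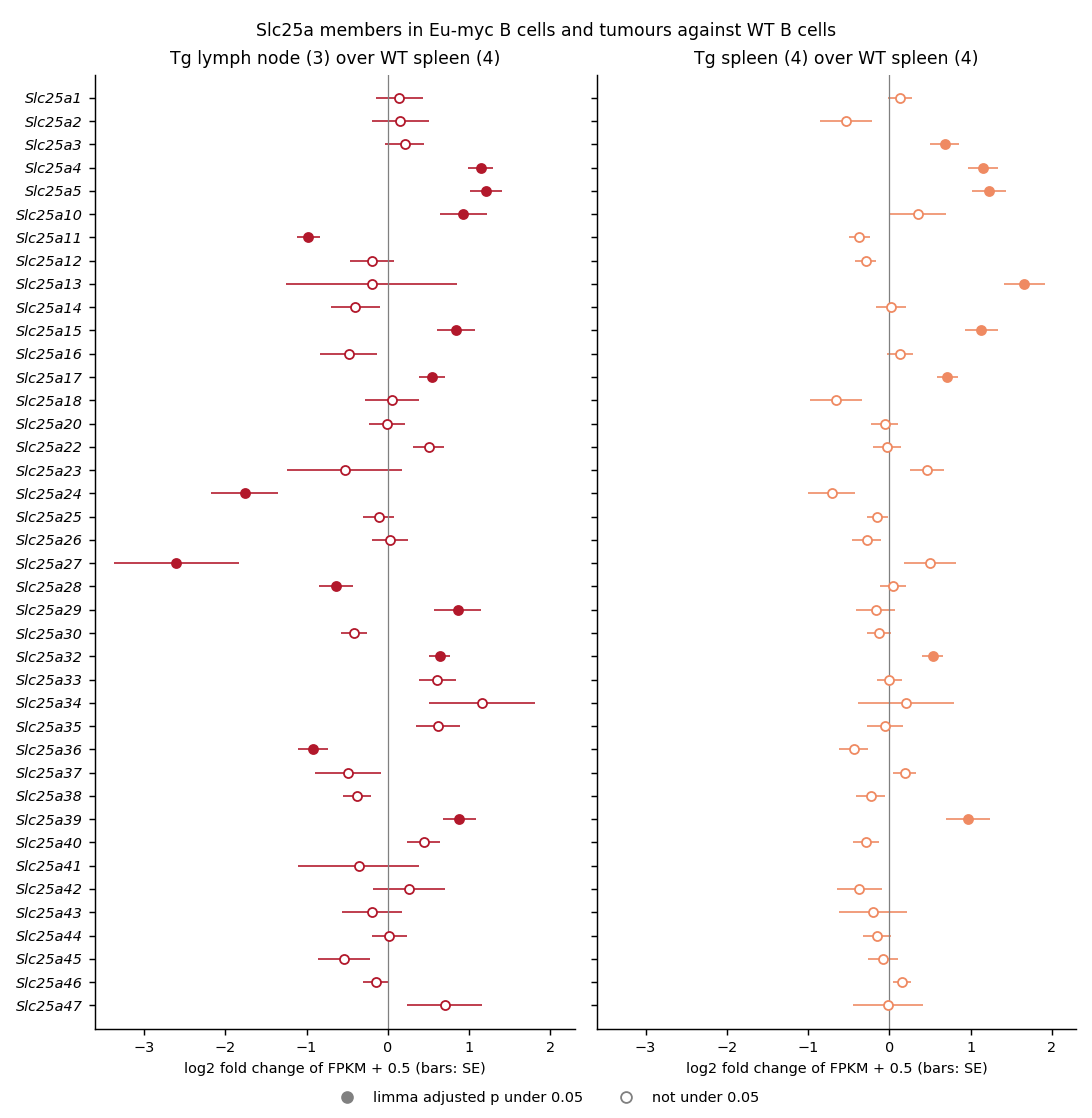
Log2 fold change of FPKM + 0.5 (horizontal axis, bars are SE) of tested Slc25a members (vertical axis) in tumours over WT spleen (left) and in Tg spleen over WT spleen (right). Filled points passed an adjusted p of 0.05 in limma, with Slc25a4 and Slc25a5 at 1.14 and 1.21 in tumours and 1.15 and 1.23 in Tg spleen, and Slc25a11 at -0.98 in tumours. Both panels use the same WT libraries.

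Both comparisons use the same WT libraries, so their values are given side by side without a measure of likeness. Slc25a4 and Slc25a5 had log2 fold changes of 1.14 and 1.21 in tumours and of 1.15 and 1.23 in Tg spleen, each over WT spleen. Slc25a11 and Slc25a36 had -0.98 and -0.92 in tumours and -0.37 and -0.44 in Tg spleen, where neither was called. The difference itself was tested between tumours and Tg spleen. Of 40 members tested, 0 were higher and 1 was lower, Slc25a27, against 3.56% and 2.39% of all 14692 genes, and 8 members (20.0%) had an unadjusted p under 0.05, against 23.2% of all genes. Of the 40 members, 2 fell short of the filter on low values in at least 1 group, and Slc25a27 is one of them. Without the tumour numbered 3, 0 members were higher and 0 lower in limma, with 10 at an unadjusted p under 0.05. Slc25a27 had 0.9, 5 and 0 FPKM in tumours, against 13.3, 9.7, 17.3 and 12.6 FPKM in Tg spleen, and the groups did not overlap. A single tumour reached 1 FPKM, so the gene was tested only through the spleen libraries. The log2 fold change was -3.10 ± 0.75 (adjusted p = 0.0488, limma). This call was lost in 10 of 14 alternatives, among them the fits without tumour replicate 1 or 3 and without any 1 of the 4 Tg spleen libraries (adjusted p = 0.0606 to 0.117, limma). Slc25a11 came next, below every Tg spleen library in all tumours without passing (log2 fold change -0.62, adjusted p = 0.0651, limma). For Slc25a4 and Slc25a5 the difference between tumours and Tg spleen was -0.01 ± 0.23 and -0.02 ± 0.25 (log2, SE).

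Slc25a13 was the member that varied most among tumours. It had 148.7, 3.9 and 9.8 FPKM in the tumours numbered 1, 2 and 3, against 50.4 to 101.5 FPKM in Tg spleen and 16.3 to 23.6 FPKM in WT spleen. A single tumour was above every spleen library and the other 2 were below all of them. The SD on the log2 scale was 2.65 in tumours, 0.48 in Tg spleen and 0.25 in WT spleen, and the tumour value lay at the 98.3 percentile of all genes. The median member had an SD of 0.34 in tumours, and the median gene 0.42. Slc25a13 amounted to 1.04, 0.0272 and 0.0314 of Slc25a12 in the 3 tumours. With all tumours it was called in neither tumour comparison. Without tumour replicate 1 it was lower in tumours than in WT spleen (log2 fold change -1.69, adjusted p = 0.0206, limma) and than in Tg spleen (-3.35, adjusted p = 0.0155, limma). Those fits keep only the 2 tumours already below every spleen library, 1 of them the tumour numbered 3. Their direction was thus fixed by leaving out the high tumour, and no conclusion is drawn from them. Slc25a23, an ATP-Mg/phosphate carrier, spread the other way, with 4, 42 and 31.7 FPKM in the same tumours, against 27 to 46.8 FPKM in Tg spleen and 23.7 to 29.5 FPKM in WT spleen. Slc25a37, mitoferrin 1, which brings iron into mitochondria for heme synthesis in red cell precursors, had 266, 343.3 and 95.3 FPKM in tumours, against 309.1 to 349.9 FPKM in Tg spleen and 233.9 to 355 FPKM in WT spleen. The low value is that of the tumour numbered 3. Erythroid markers summed to 415, 352 and 296 FPKM in these tumours, 38 to 83.2 FPKM in Tg spleen and 88.6 to 213 FPKM in WT spleen, and their part in the values of Slc25a37 was not tested.

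The genes around the family were counted from lists of their own. Of the family's proteins with other symbols, 2 of 6 were higher in Tg spleen than in WT spleen, Ucp2, an uncoupling protein (log2 fold change 0.77), and Mtch2, an outer membrane protein (0.52). In tumours Mtch2 was higher (0.60) and Mcart6, listed for Slc25a53 in the fibroblast files, was lower (-0.82), each of 6. Without the tumour numbered 3 both Ucp2 (0.67) and Mtch2 (0.61) were higher in tumours and Mcart6 was lower (-1.17). Of 11 TIM22 pathway genes, 6 were higher and 0 lower in Tg spleen, against 15.7% and 12.2% of all genes. The list median log2 fold change was 0.59 beside -0.05 for all genes. This list also holds the import receptors Tomm70a, Tomm20 and Tomm22. Timm22 itself was not called in Tg spleen (log2 fold change 0.26, adjusted p = 0.176, limma) and was higher in tumours (0.46, adjusted p = 0.0313, limma). The small Tim chaperone Timm9 had the smallest p of the list, at 277 ± 15.4 FPKM in Tg spleen and 137 ± 11.2 FPKM in WT spleen (adjusted p = 0.00137, limma). In tumours 7 of the 11 were higher and 0 lower, against 20.3% and 17.7% of all genes, with a median of 0.67 beside 0.05 for all genes, and without the tumour numbered 3 again 7 and 0. The import receptor Tomm20 averaged 936 ± 128 FPKM in tumours, 460 ± 99.6 FPKM in Tg spleen and 234 ± 49.7 FPKM in WT spleen, and it was the 1 gene of this list that also passed between tumours and Tg spleen (log2 fold change 1.04, adjusted p = 0.0365, limma), though not without the tumour numbered 3 (1.00, adjusted p = 0.0636, limma). Of 20 mitochondrial transporters outside the family, 7 were higher and 2 lower in Tg spleen, against the same 15.7% and 12.2% of all genes. They include Sfxn1, a mitochondrial serine transporter (log2 fold change 1.66), and the outer membrane channel Vdac1 (1.16) among those higher and Sfxn4 (-1.17) among those lower. In tumours 7 were higher and 4 lower, against 20.3% and 17.7% of all genes, and without the tumour numbered 3 the counts were 7 and 6. The smallest p-values there were those of Vdac1 (log2 fold change 1.46) and of the ABC transporters Abcb8 (1.32) and Abcb6 (1.81), which were 1.40, 1.30 and 1.92 without that tumour. Without the tumour numbered 3, 0 genes of these lists were called between tumours and Tg spleen in limma, with 1 of 6, 4 of 20 and 2 of 11 at an unadjusted p under 0.05.

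In fibroblasts few carriers changed after OHT, and the pyrimidine nucleotide carrier Slc25a33 was higher at 4 and 16 h. At 4 h 2 of 41 members tested were higher than at 0 h (4.88%) and 0 lower, against 1.90% and 2.88% of all 12934 genes tested. At 8 h 0 were higher and 0 lower in limma, against 1.21% and 0.982% of all genes. An unadjusted p under 0.05 was found at 8 h for 5 members (12.2%) and for 12.9% of all genes. At 16 h 1 was higher and 0 lower, against 1.76% and 7.75%. Of the 47 members, 6 had too little signal to be tested, and 5 of the 41 tested fell short of the filter on low values in at least 1 group at 4 h, 5 at 8 h and 7 at 16 h. Between 16 h and 4 h no gene of all 12934 passed in limma, and 2 of 41 members and 218 genes had an unadjusted p under 0.05. The comparisons at 4, 8 and 16 h share the 0 h libraries.

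Slc25a33, a pyrimidine nucleotide carrier, had 22.604, 32.779, 26.98 and 38.829 FPKM at 0 h. It had 38.031, 40.705, 47.415 and 49.325 FPKM at 4 h, 45.39, 43.972, 40.599 and 45.751 FPKM at 8 h, and 46.532, 36.276, 41.79 and 52.35 FPKM at 16 h. The 0 h library numbered 4 lay above 1 library at 4 h and 1 at 16 h, so those groups overlapped, while at 8 h they did not. The log2 fold changes were 0.55, 0.56 and 0.55 at 4, 8 and 16 h, each ± 0.15 (SE), with adjusted p = 0.0384, 0.0565 and 0.0227 in limma. These few calls leaned on single libraries. The count at 4 h was 0 without OHT_0h replicate 1 or 3 or without OHT_4h replicate 2 or 3, 1 without OHT_0h replicate 2 or 4 or OHT_4h replicate 1, and 3 without OHT_4h replicate 4. At 16 h it was 0 without OHT_0h replicate 1 or 3 or OHT_16h replicate 4, and at 8 h it was 1 without OHT_0h replicate 4. A single member was called lower at 4 h without OHT_4h replicate 4, and at 16 h without OHT_16h replicate 1 or 3.

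Libraries numbered 4 stood apart for some members. Slc25a22, a glutamate carrier, had 37.071, 29.745, 35.255 and 17.633 FPKM at 4 h, against 23.964, 20.539, 21.541 and 12.539 FPKM at 0 h, with the lowest value at each time in the library numbered 4. With all libraries on the deposited scale it was not called in the unpaired fit, and at 16 h it passed with libraries set to a common median ratio (log2 fold change 0.73, adjusted p = 0.0498, limma). Without the libraries numbered 4 at every time, 5, 3 and 3 of 41 members were higher at 4, 8 and 16 h, against 3.16%, 2.02% and 2.27% of all genes. Slc25a22, Slc25a23 and Slc25a33 were among them at all 3 times, and the coenzyme A carrier Slc25a42 at 4 h. Slc25a23 had 1.046, 0.993, 0.689 and 0.63 FPKM at 0 h. It reached the filter of 1 FPKM in 1 library at 0 h, 3 at 4 h, 3 at 8 h and 4 at 16 h. It could thus be tested only through the libraries after OHT, where it was high. Slc25a42 had 7.156, 6.321, 7.56 and 5.1 FPKM at 4 h, against 4.412, 3.837, 4.08 and 3.399 FPKM at 0 h, groups that did not overlap (log2 fold change 0.66, adjusted p = 0.0848, limma). The ornithine carrier Slc25a15 averaged 27.0, 34.9, 37.5 and 35.9 FPKM at 0, 4, 8 and 16 h, with no overlap with 0 h at 8 and 16 h. In the unpaired fit on the deposited scale it did not pass at any time (adjusted p = 0.165, 0.0928 and 0.0702, limma). With libraries set to a common median ratio Slc25a15 passed at 8 and 16 h (adjusted p = 0.041 and 0.016, limma). On that scale Slc25a42 passed at 4, 8 and 16 h (adjusted p = 0.00091, 0.00703 and 0.00192, limma). The deposited scale also bore on these counts. With libraries set to a common median ratio, 4, 5 and 6 of 41 members were higher at 4, 8 and 16 h and 0 lower, against 5.74%, 5.07% and 7.60% of all 12849 genes higher. The median log2 fold change of all genes at 16 h was then 0.05 instead of -0.14. Of all genes called, 50.9%, 63.0% and 51.0% were then higher at 4, 8 and 16 h, against 39.8%, 55.1% and 18.5% on the deposited scale.

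The 5 most abundant fibroblast carriers were not called at any time. Slc25a5 had 116.141, 96.924, 94.649 and 104.295 FPKM at 0 h, 94.319, 108.294, 106.294 and 95.267 FPKM at 4 h, 100.833, 95.213, 98.773 and 101.154 FPKM at 8 h, and 115.81, 82.964, 123.382 and 103.677 FPKM at 16 h. Slc25a4 had 63.517, 75.341, 64.182 and 60.621 FPKM at 0 h, 60.235, 59.377, 70.118 and 64.892 FPKM at 4 h, 57.083, 63.19, 59.806 and 60.648 FPKM at 8 h, and 61.934, 64.302, 56.348 and 74.215 FPKM at 16 h. For both ADP/ATP carriers every later time overlapped 0 h, with log2 fold changes between -0.13 and 0.04. Slc25a17 had 63.393, 74.298, 61.033 and 93.801 FPKM at 0 h, 61.256, 75.906, 71.101 and 69.264 FPKM at 4 h, 66.309, 63.675, 71.147 and 71.06 FPKM at 8 h, and 63.665, 53.902, 63.731 and 66.142 FPKM at 16 h. Slc25a11 had 55.648, 64.228, 61.651 and 57.614 FPKM at 0 h, 53.54, 65.029, 58.417 and 72.335 FPKM at 4 h, 63.191, 71.163, 61.167 and 49.987 FPKM at 8 h, and 64.713, 46.912, 64.394 and 49.356 FPKM at 16 h. These groups overlapped as well, and a single 0 h library of Slc25a17, numbered 4, stood highest. Slc25a24 had 67.121, 66.269, 71.383 and 72 FPKM at 0 h, 54.594, 56.324, 54.655 and 71.999 FPKM at 4 h, 59.117, 62.081, 60.407 and 65.297 FPKM at 8 h, and 54.76, 57.989, 57.217 and 58.738 FPKM at 16 h. At 8 and 16 h all its libraries lay below those of 0 h, while at 4 h the library numbered 4 lay among them. The log2 fold changes of Slc25a24 were -0.23, -0.16 and -0.27 at 4, 8 and 16 h, none of which passed (adjusted p = 0.0861 at 16 h, limma). The related ATP-Mg/phosphate carrier Slc25a25 averaged 24.5, 20.2, 20.3 and 19.4 FPKM at 0, 4, 8 and 16 h, and at each time after OHT all libraries lay below those of 0 h without passing (adjusted p = 0.207, 0.284 and 0.072, limma). For TIM22 pathway genes and mitochondrial transporters outside the family, 0 of 11 and 0 of 20 were called at any of the 3 times in limma, with 1 of 11 at each time and 3 to 4 of 20 at an unadjusted p under 0.05.

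**Figure D3:**
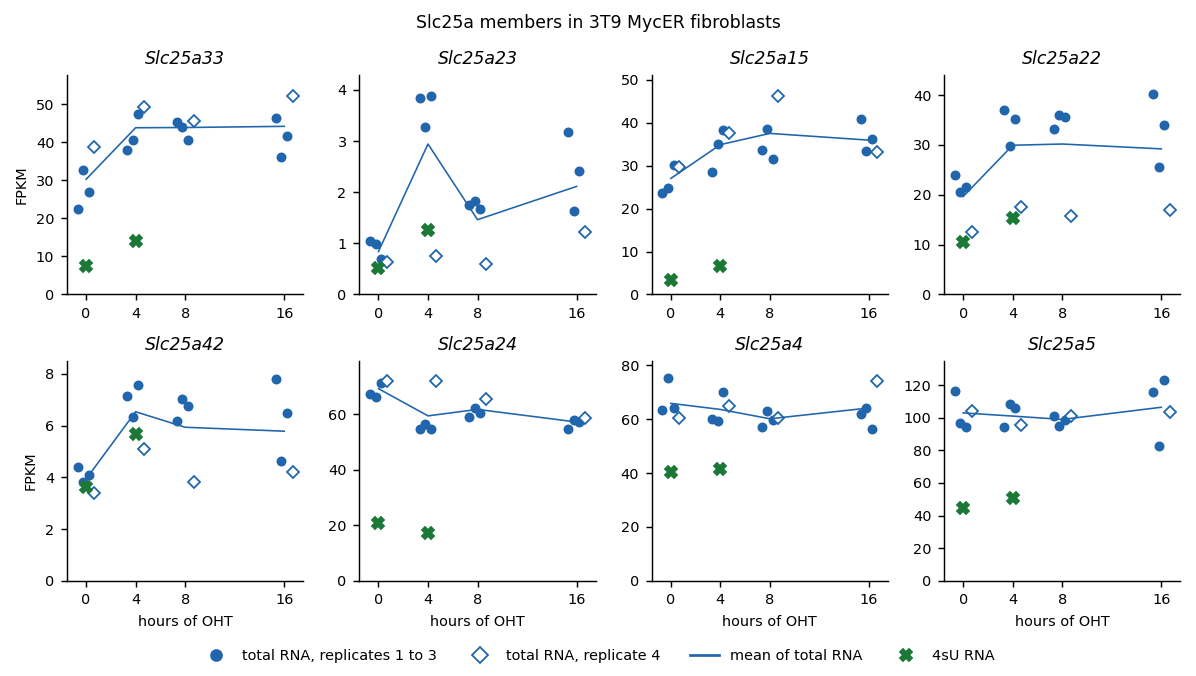
FPKM of 8 Slc25a members (vertical axis, from 0) by hours of OHT (horizontal axis) in fibroblasts, with total RNA libraries as circles (replicates 1 to 3) and open diamonds (replicate 4), their mean as a line, and the single 4sU libraries as crosses. Slc25a33 averages 43.9 FPKM at 4 h and 30.3 FPKM at 0 h, Slc25a22 is lowest in replicate 4 at every time, and Slc25a4 and Slc25a5 at every later time overlap 0 h, where they average 65.9 and 103 FPKM.

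RNA newly made in 10 min of 4sU labelling was measured in 1 library at each time, so its differences have no replicate check and no test. Of 40 members with at least 1 FPKM in either library, 4 were at least 1.5-fold higher at 4 h and 3 at least 1.5-fold lower, against 4.83% and 3.52% of all 12375 genes. Slc25a15 had 6.654 FPKM at 4 h and 3.407 FPKM at 0 h, a log2 ratio of 0.87. Slc25a33 had 14.082 FPKM at 4 h and 7.476 FPKM at 0 h, also 0.87. Both also had positive log2 fold changes in total RNA at 4 h, of 0.36 and 0.55. Slc25a23 was higher as well, at 1.252 FPKM at 4 h and 0.524 FPKM at 0 h (0.77). It reached 1 FPKM only in the 4 h library, so it entered this count through the library where it was high. Lower nascent values were found for Slc25a29, with 2.337 FPKM at 4 h and 5.573 FPKM at 0 h (-1.10), for the glutamate carrier Slc25a18 with -0.73, and for Slc25a26, the S-adenosylmethionine carrier, with 3.15 FPKM at 4 h and 5.012 FPKM at 0 h (-0.59). Slc25a29 and Slc25a26 differed by only 0.09 in total RNA, each of them a value within its SE. Slc25a24 had 17.237 FPKM at 4 h and 20.878 FPKM at 0 h in 4sU RNA, a log2 ratio of -0.27 beside -0.23 in total RNA. The sign was the same in nascent and total RNA for 24 of 40 members and for 69.8% of 12155 genes.

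**Figure D4:**
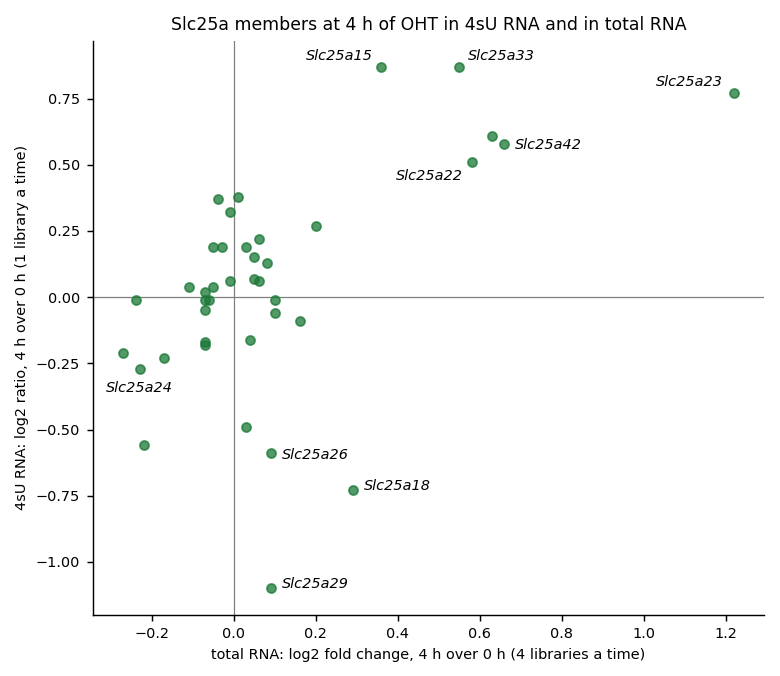
Log2 change at 4 h over 0 h of OHT in total RNA (horizontal axis, 4 libraries a time) and in 4sU RNA (vertical axis, 1 library a time) for the 40 Slc25a members with at least 1 FPKM in a 4sU library, as points. Slc25a15, Slc25a33, Slc25a42, Slc25a22 and Slc25a23 lie above 0 on both axes, and Slc25a29, Slc25a18 and Slc25a26 are at -1.10, -0.73 and -0.59 on the vertical axis.

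Members also differed in their nascent level relative to total RNA, a ratio that is not a share of a gene's RNA. The ratio of the 4sU value to the mean total RNA value at 0 h had a median of 0.303 over 30 members with at least 5 FPKM, and of 0.386 over 10255 genes, the 2 kinds of library being scaled apart. Slc25a3 had 32.176 FPKM in 4sU RNA and 26.1 FPKM in total RNA at 0 h, a ratio of 1.23 that lay at the 96.5 percentile of these genes. Slc25a15 had 3.407 FPKM in 4sU RNA and 27.0 FPKM in total RNA, a ratio of 0.126 at the 1.39 percentile. Both ADP/ATP carriers lay between them, with ratios of 0.612 for Slc25a4 and 0.433 for Slc25a5. A small nucleolar RNA, Gm24119, is annotated within Slc25a3, and its part in the Slc25a3 values was not tested. Slc25a3, Slc25a4 and Slc25a5 together made up 29.5% of the family's FPKM in 4sU RNA at 4 h and 29.4% at 0 h, and 17.2% to 21.6% in total RNA.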

How the data were processed

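The series has 11 samples of B cells and tumours and 18 of fibroblasts, each with 1 FPKM value per gene. FPKM values were computed by the authors, per the file headers, and deposited with 1 decimal for B cells and 3 for fibroblasts. Libraries were made after removal of ribosomal RNA, per the labels' protocols. The submitters' processing notes name mm9, TopHat2 2.0.8, TopHat, SAMtools and HTSeq 0.5.3p9. Annotation, strand setting and the denominator of the scale are not given in the sources used here. The files hold no counts, so no counting interval or floor is given.

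A gene was tested where the number of libraries at 1 FPKM or more reached the size of the smaller group. Tests were run on log2(FPKM + 0.5) with limma 3.58.1 in R 4.3.3 (lmFit, eBayes with trend and robust), two-sided, with Benjamini-Hochberg adjustment over all genes tested and calls under 0.05. Every B cell comparison had a model of its 2 groups alone, while all 16 fibroblast libraries of total RNA shared a model. For 4sU, with 1 library a time, ratios of at least 1.5-fold were counted. The fits were tested on simulated data. Alternatives were pseudocounts of 0.1 and 1, a filter of 5 FPKM or none, median ratio scaling, other groups in the fit, a replicate block, Rpph1 sets and leaving out libraries.

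Per-library values are given for Myc, the 5 most abundant members per system, up to 4 called members per direction and comparison with at least 5 FPKM, and the 3 largest nascent rises and falls with at least 5 FPKM. Some genes that this rule names are not reported here, though the counts include them. Other values were chosen for their roles or after they were seen. The members, lists and tests were chosen with earlier results of these data known. Promoter windows are from RefSeq on GRCm38.p6, and since the files use mm9, no position of the files was used. Tables and figures used Python 3.11.15, NumPy 2.4.6, pandas 2.3.3 and Matplotlib 3.10.9.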

Additional observations from a re-analysis of the deposited data

Results flagged for a closer look

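In the 4 OHT_4h libraries, Slc25a24 had 71.999 FPKM in replicate 4 and 54.594 to 56.324 FPKM in the other 3, a gap of 0.901 of the group's range. The rule for such flags is met by chance alone in about 1 in 20 groups, and 64 groups of member values were examined.

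Slc25a27 differed between tumours and Tg spleen in its change from WT spleen: the difference was -3.10 on the log2 scale (adjusted p = 0.0488, limma), from 0.9, 5 and 0 FPKM in tumours, against 9.7 to 17.3 FPKM in Tg spleen. A single tumour reached the filter of 1 FPKM, so the gene was tested only through the spleen libraries. The call was lost in 10 of 14 alternatives, over which the difference ran between -4.03 and -2.28.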

How the results depend on the processing

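Of 402 recomputed values of called members, 306 kept their direction and call, 96 kept the direction without passing, and 0 reversed. Samples share numbers across groups, but in B cells the Tg and WT animals differ, and in fibroblasts the deviations of libraries numbered 1, 2 and 4 correlated with those at 0 h at r = 0.157 to 0.504 while those numbered 3 did so at 0.0169 to 0.0677. Not every number passed 0.1, so the pairing is not established. With a replicate block, 0 members were higher in Tg spleen than in WT spleen, against 4.1% of all genes. In tumours 0 were higher and 0 lower than in WT spleen, and 0 lower than in Tg spleen. With this block 0% of all genes passed in either tumour comparison. In fibroblasts 5, 3 and 4 members were higher at 4, 8 and 16 h, against 3.15%, 2.42% and 2.7% of all genes. At 16 h 2 members were lower, against 13.3% of all genes. Slc25a22, not called without the block, passed with it at 4, 8 and 16 h (adjusted p = 0.00459, 0.00751 and 0.00614, limma). Slc25a15 passed with the block at 8 and 16 h (adjusted p = 0.0417 and 0.038, limma) and Slc25a42 at 4 h (adjusted p = 0.0116, limma). Leaving out 1 replicate at a time, 0 to 2 members were lower in Tg than in WT spleen, 4 to 8 higher and 4 to 9 lower in tumours than in WT spleen, and 0 to 1 lower in tumours than in Tg spleen. In fibroblasts it gave 0 to 3 higher and 0 to 1 lower at 4 h, 0 to 1 higher at 8 h, and 0 to 1 higher and 0 to 1 lower at 16 h. Without any filter, 5 members were higher in tumours than in WT spleen and 1 higher at 4 h. Lower members in Tg spleen numbered 4 with the Rpph1 set as a factor, against 15.7% of all genes, and 1 within the libraries of low Rpph1. Between tumours and Tg spleen, a fit of all 3 B cell groups gave 2 higher and 3 lower, and a filter of 5 FPKM or a pseudocount of 0.1 gave 0 lower. Where no share of all genes stands beside a count, here or above, the count is not read as particular to the members. Median ratio scaling gave 4, 5 and 6 higher members at 4, 8 and 16 h, and leaving out the libraries numbered 4 gave 5, 3 and 3. A pseudocount of 1 left 2 nascent rises of at least 1.5-fold. The cause was not tested for any of these.

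Without counts, the precision of low values such as those of Slc25a27 and Slc25a23 is unknown.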
